A study of Mus musculus with 10 samples.

Results

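Genes of muscle regeneration and denervation were followed in whole subcutaneous melanomas. They were 10 of the 45706 genes in the deposited table and were taken by symbol from the annotation of the same genome build: the myogenic factors Pax7, Myf5, Myod1, Myog and Myf6, the developmental myosins Myh3 and Myh8, and the acetylcholine receptor subunits Chrna1, Chrng and Chrnd. These genes were selected on the level of muscle RNA, which had been seen to be high in tumors of NK cell-depleted mice, and the question was whether that RNA came with the genes of resting or of regenerating muscle. Levels, fold changes and counts of genes past the thresholds that involve the NK cell-depleted group are therefore given as a description, without p-values, and p-values are given for Ptgs-/- against Ptgs+/+ tumors. Whether groups overlap or stand clear of each other is likewise a description. The share of all genes without overlap was not counted, so nothing is read from it for any gene below.

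Skeletal muscle is repaired by satellite cells, which are marked by Pax7, divide and switch on Myf5 and Myod1 when a fiber is damaged. Their progeny then express Myog and Myf6, fuse, and pass through fibers that carry the embryonic myosin Myh3 and the perinatal myosin Myh8 before adult myosins replace these. A fiber that loses its nerve makes acetylcholine receptors along its length and returns to the fetal receptor with a gamma subunit (Chrng), whereas the innervated adult junction uses epsilon (Chrne).

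RNA came from tumors on day 4 after injection of melanoma cells under the flank skin of C57BL/6 mice that were 8 weeks old. The cells derive from a Braf-driven melanoma model with a Tyr::CreERT2 transgene and loss of p16 INK4a and were either parental (Ptgs+/+, n = 4) or made deficient in Ptgs1 and Ptgs2 with CRISPR/Cas9 (Ptgs-/-, n = 3), which encode the cyclooxygenases COX-1 and COX-2. A group of 3 further mice bore Ptgs-/- tumors and were depleted of NK cells, per the labels with 200 µg of anti-NK1.1 (clone PK136) and 30 µg of anti-asialo GM1 on days 0 and 2, while the study's methods give another schedule. Each library is 1 tumor, named here by its group and replicate, and whether the Ptgs-/- line is 1 clone is not given in the sources used here. A difference between the lines from another source and the loss of the enzymes cannot be told apart. Ptgs+/+ replicate 4 and Ptgs-/- replicate 3 carry the code EB042 in their titles and all others EB046. What the code stands for is not given in the sources used here.

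The 10 libraries held 8150556 to 12839174 counts. They were made from the 3′ ends of transcripts, so a count stands for a transcript end and does not grow with gene length. Counts per 1000000 counts of a library (CPM) are set side by side between genes. Genes can still differ in how well their ends are counted, as the last section shows for Tnnc2, so ratios between genes carry that limit. In whole tumors, fewer cells of a type and less RNA per cell cannot be told apart. Ptgs2 was 253 ± 110 CPM (SD, n = 4) in Ptgs+/+, 43.0 ± 27.6 (SD, n = 3) in Ptgs-/- and 44.8 ± 4.56 (SD, n = 3) in NK cell-depleted tumors, and Ncr1, the NK cell receptor NKp46, had no count in the last group. Of the melanocyte genes, Mitf was the most abundant at 17.4 to 33.1 CPM over all libraries, whereas Tyr and Mlana stood at 0 to 2 counts per library and Slc45a2 at 0.

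The 3 satellite cell and myoblast factors were at the limit of detection. Pax7 (ENSMUSG00000028736, GRCm38 chromosome 4, 139737062 to 139833528) had 0 counts in each Ptgs+/+ library, against 0, 2 and 1 in Ptgs-/- replicates and 1, 3 and 14 in NK cell-depleted replicates 1, 2 and 3. Replicate 3 thus held most of the Pax7 counts of its group, while replicates 1 and 2 lay within a few counts of the Ptgs-/- libraries. Myod1 (ENSMUSG00000009471, chromosome 7, 46376474 to 46379099) was absent from all Ptgs+/+ libraries, stood at 2, 1 and 0 counts in Ptgs-/- tumors, and at 2, 5 and 3 after depletion. Myf5 (ENSMUSG00000000435, chromosome 10, 107482908 to 107486134) never exceeded 1 count. For all 3 factors the Ptgs-/- and NK cell-depleted groups overlapped. Summed over each group, the 3 factors had 0 counts in Ptgs+/+, 7 in Ptgs-/- and 30 in NK cell-depleted tumors. The ratio of the last to the Ptgs-/- group was 4.08 (95% interval 1.75 to 11, exact and for counting error only).

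The differentiation factors were the myogenic factors with the most counts. Myog (ENSMUSG00000026459, chromosome 1, 134289989 to 134292548), the factor that commits myoblasts to fuse, was not counted in any of the 4 Ptgs+/+ libraries, had 3, 1 and 0 counts in Ptgs-/- replicates 1 to 3, and reached 26, 31 and 35 after NK cell depletion. The NK cell-depleted group stood clear of both others, and its 3 libraries lay close together at 3.04 ± 0.38 CPM (SD, n = 3). Myf6 (ENSMUSG00000035923, chromosome 10, 107492853 to 107494737), also known as MRF4 and kept on in adult fibers, gave 0, 0, 1 and 0 counts for Ptgs+/+ replicates, none for Ptgs-/- replicates, and 5, 6 and 20 after depletion. NK cell-depleted replicate 3 again held most of the counts, and the group did not overlap the others. Against a floor of 3 counts over a group, Myog was at least 44.1-fold higher in NK cell-depleted than in Ptgs+/+ tumors and Myf6 at least 9.83-fold higher than in Ptgs-/- tumors. Myog against Ptgs-/- tumors, which held 4 counts in all, gave a ratio of 21.9 (95% interval 8.26 to 82.0, counting error only).

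The developmental myosins were sparse too. Myh8 (ENSMUSG00000055775, chromosome 11, 67277124 to 67308634) gave 0, 0, 0 and 2 counts for Ptgs+/+ replicates, 3, 1 and 0 for Ptgs-/- replicates and 7, 12 and 15 after depletion, without overlap of the last group with the others. Myh3 (ENSMUSG00000020908, chromosome 11, 67078300 to 67102291) gave 0, 2, 3 and 0, then 0, 0 and 4, then 3, 2 and 6 counts for the same groups, and these ranges overlapped. For scale, the adult fast myosin Myh4 had 33 to 295 counts in Ptgs+/+, 280 to 649 in Ptgs-/- and 3815 to 12228 in NK cell-depleted libraries. The ratio of NK cell-depleted to Ptgs-/- tumors was 8.09 for Myh8 (95% interval 2.88 to 31.4) and 2.62 for Myh3 (95% interval 0.775 to 11.3), both exact and for counting error only.

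The receptor subunits split into 1 abundant and 2 almost undetected genes. Chrna1 (ENSMUSG00000027107, chromosome 2, 73563215 to 73580338), the alpha subunit that binds acetylcholine, gave 206, 99, 118 and 61 counts for Ptgs+/+ replicates 1 to 4, 876, 759 and 1318 for Ptgs-/- replicates 1 to 3, and 1259, 1814 and 1041 for their NK cell-depleted counterparts. Every Ptgs-/- library, with or without NK cells, was above every Ptgs+/+ library, and the Ptgs-/- and NK cell-depleted groups overlapped. As a level with its SD, Chrna1 was 10.7 ± 3.98 CPM in the 4 Ptgs+/+ tumors, 102 ± 21.4 CPM in the 3 Ptgs-/- tumors and 135 ± 32.0 CPM in the 3 NK cell-depleted ones. Chrng (ENSMUSG00000026253, chromosome 1, 87204657 to 87212694), the fetal gamma subunit, was at 0 in all Ptgs+/+ libraries, had 1 count among the 3 Ptgs-/- libraries, and had 2, 1 and 1 after depletion. Chrnd (ENSMUSG00000026251, chromosome 1, 87190607 to 87200070), the delta subunit of both receptor forms, had no count in any Ptgs+/+ or Ptgs-/- library and 0, 1 and 1 after depletion. No fold is given for Chrnd because no group exceeded 3 counts.

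**Figure D1:**
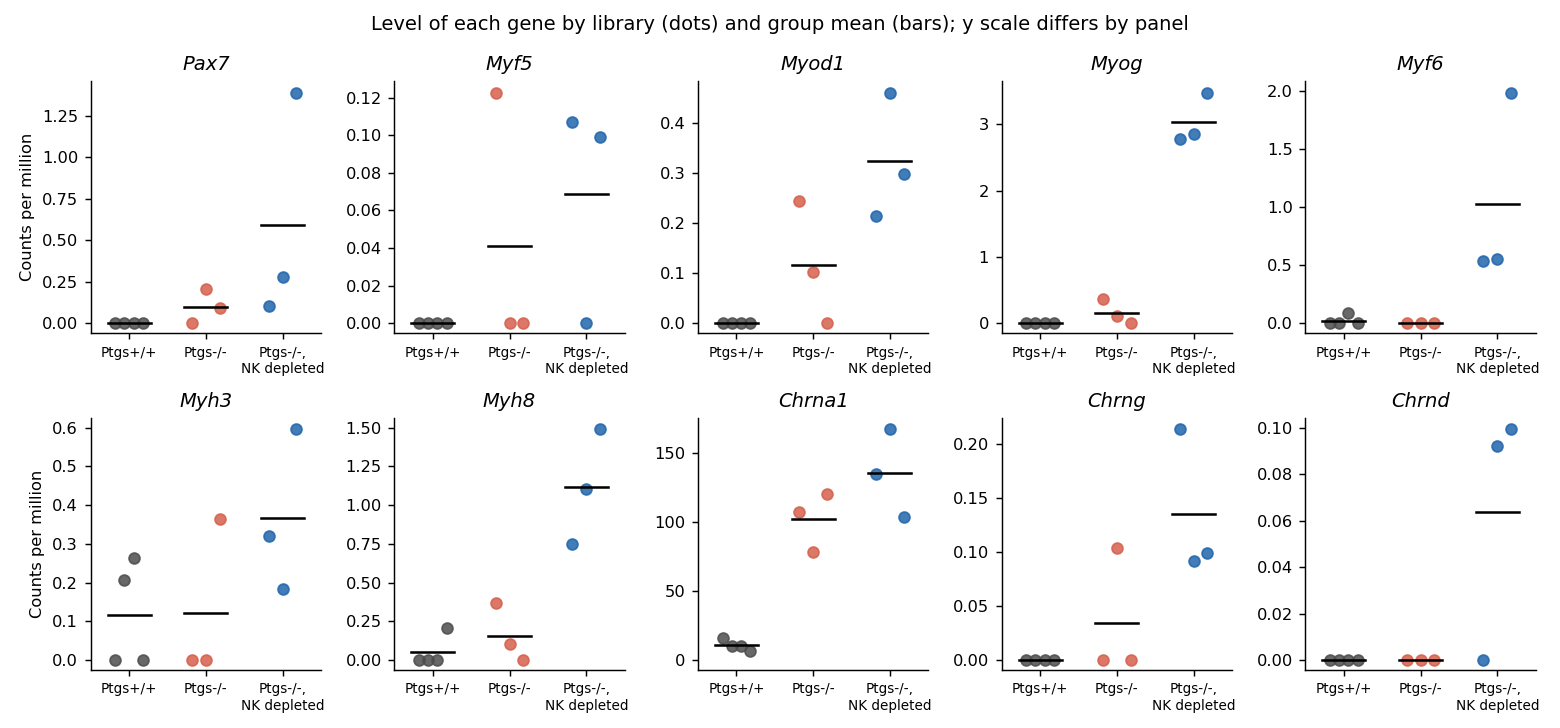
Level of each of the 10 genes in CPM (y axis, a separate linear scale in each panel) in Ptgs+/+ (n = 4), Ptgs-/- (n = 3) and NK cell-depleted Ptgs-/- (n = 3) tumors, with 1 dot per library and a bar at the group mean. Myog, Myf6 and Myh8 were separate from both other groups in NK cell-depleted tumors, at levels below 4 CPM. The genes were chosen with that group in view and the share of all genes so separated was not counted. Chrna1 was above 78 CPM in both Ptgs-/- groups and at most 16.0 CPM in Ptgs+/+ tumors.

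The other subunits of the muscle receptor did not accompany Chrna1. Chrnb1, the beta subunit, had 87, 62, 67 and 56 counts in Ptgs+/+, 77, 61 and 83 in Ptgs-/- and 76, 98 and 74 in NK cell-depleted libraries. With Ptgs loss its log2 fold change was 0.25 ± 0.18 (SE), and edgeR's quasi-likelihood test gave a Benjamini-Hochberg adjusted p = 0.335. Chrne, the adult epsilon subunit, had 4, 1 and 4 counts in all in the 3 groups, and Musk, the kinase that clusters the receptor at the junction, had 0 to 2 counts in every library. Summed over a group, Chrna1 had 1.78 counts per Chrnb1 count in Ptgs+/+, 13.4 in Ptgs-/- and 16.6 in NK cell-depleted tumors. A complete receptor needs alpha, beta and delta subunits with gamma or epsilon. Chrnd did not exceed 1 count in any library, but a low count of a single gene cannot be read as absence, as the last section shows for Tnnc2. Whether the Chrna1 RNA came with a complete receptor was not tested.

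**Figure D2:**
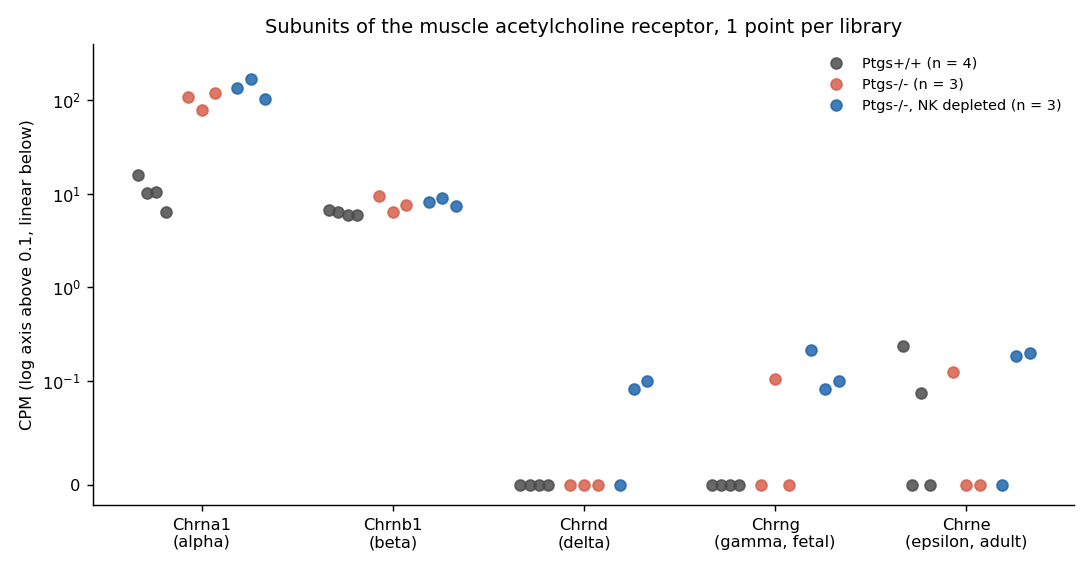
Levels of the 5 subunits of the muscle acetylcholine receptor in each library (y axis in CPM, logarithmic above 0.1 and linear below it, 1 point per library, colored by group). Chrna1 differs between Ptgs+/+ and both Ptgs-/- groups, Chrnb1 stays between 5.86 and 9.45 CPM in all libraries, and Chrnd, Chrng and Chrne remain at or near 0.

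Sequence upstream of the RefSeq start is shown for Chrna1, Chrng and Myog because the first 2 are receptor genes whose counts differ by orders of magnitude and the last is the myogenic factor with the most counts. RefSeq promoters on GRCm38.p6 were found for 7 of the 10 genes and not used here for Myod1, Myf6 and Chrnd. The 250 bases before the RefSeq start are written 5′ to 3′ on the strand of the gene, with each E-box, the motif of the myogenic factors searched as CANNTG, in capitals. RefSeq starts can differ from those of the GENCODE genes whose coordinates are given above, and the window of Chrng lies inside the GENCODE gene, while that of Myog ends just inside it.
Chrna1, chr2:73580339-73580588, minus strand: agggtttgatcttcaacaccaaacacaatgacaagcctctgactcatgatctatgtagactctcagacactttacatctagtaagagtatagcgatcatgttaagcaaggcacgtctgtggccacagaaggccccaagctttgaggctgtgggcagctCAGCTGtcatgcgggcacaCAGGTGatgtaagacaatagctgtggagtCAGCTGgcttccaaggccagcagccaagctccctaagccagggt
Chrng, chr1:87205561-87205810, plus strand: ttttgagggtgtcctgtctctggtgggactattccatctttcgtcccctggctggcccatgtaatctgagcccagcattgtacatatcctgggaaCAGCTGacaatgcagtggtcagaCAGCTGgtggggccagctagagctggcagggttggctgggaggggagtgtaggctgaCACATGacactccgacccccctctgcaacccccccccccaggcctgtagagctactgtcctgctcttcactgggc
Myog, chr1:134289754-134290003, plus strand: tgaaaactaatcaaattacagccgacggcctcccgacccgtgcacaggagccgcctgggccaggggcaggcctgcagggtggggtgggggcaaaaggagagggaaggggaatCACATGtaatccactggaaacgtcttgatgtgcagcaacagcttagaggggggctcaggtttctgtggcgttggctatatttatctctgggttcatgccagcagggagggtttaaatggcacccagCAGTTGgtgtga
Chrna1 and Chrng each hold 3 E-boxes, 2 of them of the form CAGCTG, and Myog holds 2, none of that form. Both motifs read the same on either strand, and CAGCTG is itself a CANNTG. Of 32851 promoters of this length, 66.2% hold at least 1 CANNTG, 12.2% hold at least 3, and 1.26% hold at least 2 CAGCTG. Pax7 and Myf5 have no CANNTG in this window, and Myh3 and Myh8 have 1 each. Chrna1 and Chrng thus have the same number of these letters, although Chrna1 had 61 to 1814 counts per library and Chrng at most 2.

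Ptgs-/- and Ptgs+/+ tumors were then compared over all 14550 genes that passed the filter on low counts, where the study's limits, an FDR of 0.05 or less and an absolute log2 fold change of 1.5 or more, decided which genes were called. Of the 10 genes 8 were too low for that filter. Chrna1 rose by 3.17 ± 0.27 (SE) on the log2 scale, with a Benjamini-Hochberg adjusted p = 3.95e-05 in edgeR's quasi-likelihood test. Myog, with 0 counts in all Ptgs+/+ libraries and 4 counts in all in Ptgs-/- libraries, passed the filter only through the NK cell-depleted libraries, and its difference between these groups is left as counts. In a fit of the compared groups alone Chrna1 was the 1 gene of the 10 that passed the filter, and it was called there as well. Among all genes 4.15% were called, or 3.14% if only genes higher in Ptgs-/- tumors are counted. The Ptgs-/- and Ptgs+/+ groups overlapped for the other 9 genes, which had at most 4 counts in any of these libraries. At such counts ties at 0 make overlap likely, so nothing is read from it.

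The difference in Chrna1 was present under both codes of the titles. Among libraries of code EB046 alone it was 2.90 ± 0.26 (SE) on the log2 scale (adjusted p = 0.000748, quasi-likelihood test in edgeR). Code EB042 holds 1 library of each genotype, with Chrna1 at 6.38 CPM in Ptgs+/+ replicate 4 and 120 CPM in Ptgs-/- replicate 3. With the code as a term the log2 fold change was 3.22, and leaving out each library in turn gave 2.99 to 3.45.

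The values of NK cell-depleted tumors are a description, since the genes were chosen with them in view. Relative to Ptgs-/- tumors, Myog had a log2 fold change of 4.34 ± 0.64 (SE) and Chrna1 one of 0.44 ± 0.27 (SE), and Myog met both thresholds. Among all genes 1.15% met them, or 0.825% counting only those higher after depletion, but Myog passed the filter only through the NK cell-depleted libraries, so nothing is read from its call. Without Ptgs-/- replicate 2, NK cell-depleted replicate 2 or NK cell-depleted replicate 3 Myog did not meet them, with log2 fold changes of 4.16, 4.37 and 4.22. Against Ptgs+/+ tumors the fitted values were 7.96 for Myog (standard error 0.85), which rests on a group at 0, and 3.61 for Chrna1 (standard error 0.27), and both met the thresholds, beside 2.71% of all genes. Both comparisons share libraries with that of Ptgs-/- against Ptgs+/+ tumors. All NK cell-depleted libraries carry code EB046, and against Ptgs-/- replicates 1 and 2 of that code Myog had a log2 fold change of 3.67.

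Mature muscle RNA was higher in NK cell-depleted tumors, which puts the counts of the 10 genes in proportion. The summed level of 20 fast fiber genes was 38.4 to 239 CPM in Ptgs+/+, 166 to 551 in Ptgs-/- and 3074 to 7520 in NK cell-depleted libraries, and the skeletal actin Acta1, its most abundant gene, ran from 7.43 to 84.2, from 46.3 to 171 and from 1197 to 2543 CPM. The 9 genes without Chrna1 had 8 counts in all in Ptgs+/+, 20 in Ptgs-/- and 204 in NK cell-depleted tumors. Per 1000 counts of the fast fiber genes, these 9 genes together had 0 to 5.45 counts in Ptgs+/+ libraries, 1.61 to 2.74 in Ptgs-/- libraries and 1.27 to 1.64 in NK cell-depleted libraries. The 3 ranges overlapped. Pooled over the libraries of a group, the values were 1.64 (95% interval 0.707 to 3.23), 1.99 (1.22 to 3.07) and 1.37 (1.19 to 1.57), exact Poisson intervals that cover counting error only.

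**Figure D3:**
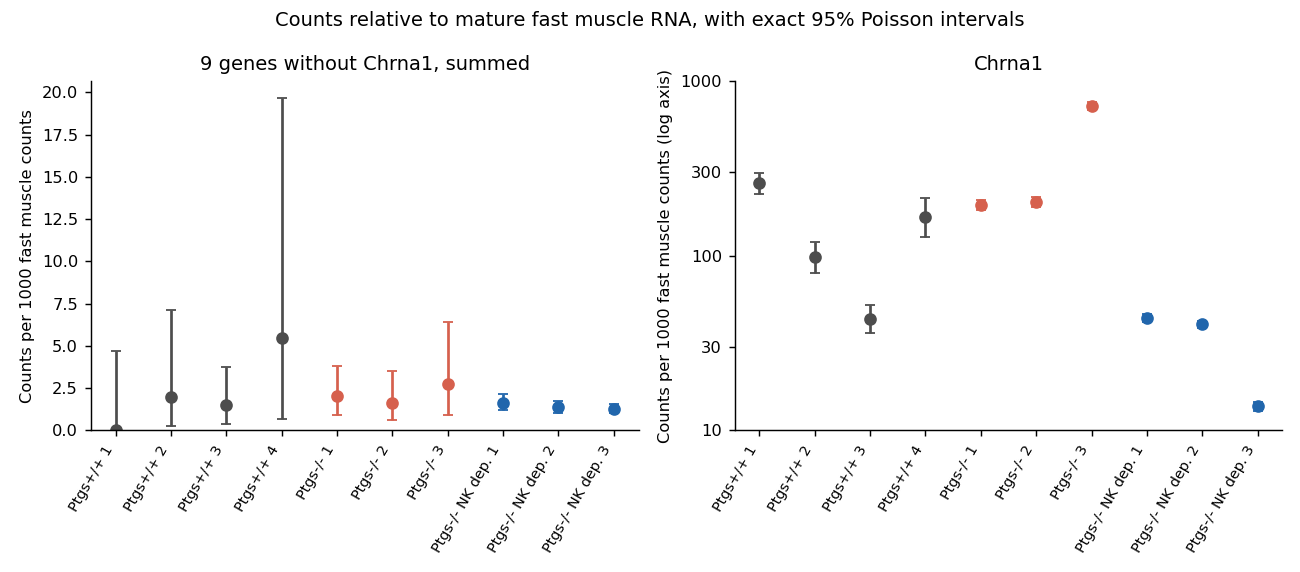
Counts of the 9 genes without Chrna1, summed (left, linear axis), and of Chrna1 (right, log axis) per 1000 counts of 20 fast muscle genes in each library, with exact 95% Poisson intervals and colors by group. For the 9 genes the NK cell-depleted libraries lie at 1.27 to 1.64, inside the intervals of every Ptgs-/- library, whereas Chrna1 spans 13.7 to 723.

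The proportions are also given by role. Myog had 0.462 to 0.905 counts per 1000 fast fiber counts in NK cell-depleted libraries and 0 to 0.668 in Ptgs-/- libraries, which overlap. Pax7, Myf5 and Myod1 together had 0.139 to 0.238 in NK cell-depleted and 0.548 to 0.803 in Ptgs-/- libraries, which do not overlap, although the latter rest on 7 counts. Pooled over each group, their exact 95% Poisson intervals did overlap, at 0.136 to 0.287 and 0.280 to 1.43. Myh3 and Myh8 together had 0.277 to 0.348 after depletion and 0.268 to 2.19 in Ptgs-/- libraries. Chrng and Chrnd together had 0.0264 to 0.0696 per 1000 in NK cell-depleted libraries, from 6 counts against 149188 of fast fiber genes. In these proportions no role group other than Myf6 stood above the Ptgs-/- range in all NK cell-depleted libraries. Myf6 was at 0.134 to 0.264 against 0 counts in each Ptgs-/- library, whose exact 95% intervals reach up to 0.821 to 2.02 per 1000. The Ptgs-/- ranges rest on so few counts that a single count sets them. For Chrng and Chrnd, 1 count in Ptgs-/- replicate 2 gave 0.268 per 1000. A role group could hardly exceed such ranges, so nothing is read from the lack of values above them.

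Chrna1 followed muscle RNA between some libraries and not between others. Ptgs+/+ replicate 4 had the least of both, 38.4 CPM of fast fiber RNA and 6.38 CPM of Chrna1, and both were higher in Ptgs-/- replicate 1, at 551 and 107 CPM, than in Ptgs-/- replicate 2, at 386 and 78.5 CPM. In contrast, Ptgs-/- replicate 3 had the least fast fiber RNA of its group, 166 CPM, and the most Chrna1, 120 CPM. Ptgs+/+ replicate 3 had more fast fiber RNA, 239 CPM, and 10.4 CPM of Chrna1. Within the NK cell-depleted group, replicate 3 had the most fast fiber RNA, 7520 CPM, and the least Chrna1, 103 CPM. Per 1000 fast fiber counts, Chrna1 ran from 43.4 to 261 in Ptgs+/+, from 195 to 723 in Ptgs-/- and from 13.7 to 43.8 in NK cell-depleted libraries. The source of Chrna1 RNA in these tumors was not tested.

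**Figure D4:**
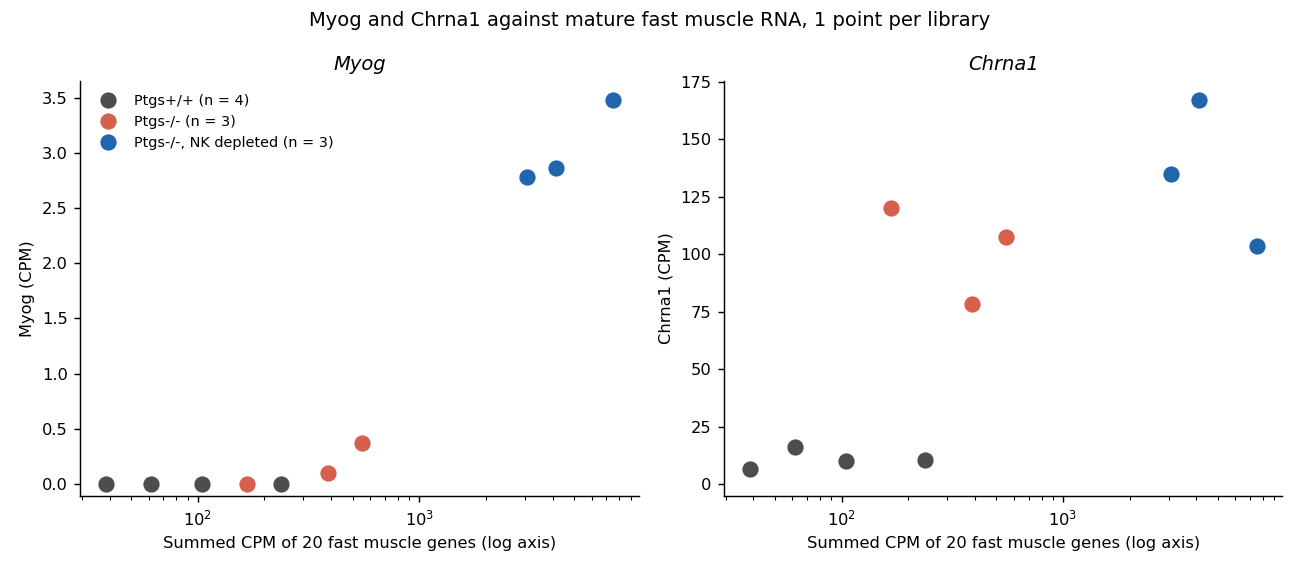
Level of Myog (left) and Chrna1 (right) in CPM against the summed CPM of 20 fast muscle genes (x axis, logarithmic), 1 point per library, colored by group. Myog is above 2.7 CPM only in the 3 libraries with fast muscle RNA of 3074 CPM or more, whereas Chrna1 takes 103 to 167 CPM in those libraries and already 78.5 to 120 CPM in Ptgs-/- libraries with 166 to 551 CPM of fast muscle RNA.

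Of 25 other genes of muscle regeneration, 19 were tested. Between NK cell-depleted and Ptgs-/- tumors their median log2 fold change was 0.28, beside 0.01 over all genes. Among all genes 0.825% were called higher, and of the 19 tested here 2 met the thresholds, both higher. These were Mstn, which restrains muscle growth and is made by adult fibers, with 4 counts in all in Ptgs-/- libraries and 31, 26 and 46 after depletion, and the cardiac actin Actc1, which is on in developing and regenerating fibers, with 3, 3 and 1 counts and then 39, 68 and 43. The noncoding RNA H19, abundant in embryonic muscle, was 45.7 ± 19.6 CPM in Ptgs-/- and 138 ± 25.6 CPM in NK cell-depleted tumors (SD, n = 3 each), a log2 fold change of 1.62 that did not pass the FDR. Mymk, the fusion protein myomaker, had no count in Ptgs+/+ or Ptgs-/- libraries and 1, 2 and 3 after depletion. The most abundant genes of this list are expressed in many cell types, and Cdkn1a, a cell cycle inhibitor, and Mef2a differed by log2 fold changes of 0.05 and -0.08. Between Ptgs-/- and Ptgs+/+ tumors 1 gene of this list was called higher and 2 lower, beside 4.15% of all genes called in either direction. Of these called genes of the list, the rule for names took Fst, the myostatin antagonist follistatin. It fell by 2.53 on the log2 scale (adjusted p = 0.000628 by the quasi-likelihood test of edgeR). The others, named after their values were seen, were Tnnt2, a cardiac and embryonic troponin, which was higher, and Itga7, a muscle laminin receptor, which was lower.

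Of 21 other genes of the neuromuscular junction and of denervation, 11 were tested, with a median log2 fold change of -0.03 between NK cell-depleted and Ptgs-/- tumors. The single gene that met the thresholds was Trim63, the ubiquitin ligase MuRF1 of muscle wasting, with 10, 5 and 1 counts in Ptgs-/- libraries and 41, 40 and 105 after depletion. Its partner in wasting, Fbxo32, had a log2 fold change of 0.63 (standard error 0.19) and did not meet them. Ncam1 is an adhesion molecule that spreads over denervated fibers and is also made by nerve. Its level was 32.8 ± 3.29 CPM in Ptgs+/+ (SD, n = 4), 57.4 ± 8.41 in Ptgs-/- and 58.9 ± 4.53 in NK cell-depleted tumors (SD, n = 3 each). Gadd45a, which rises in denervated muscle and in stressed cells, was higher by 1.81 ± 0.23 (SE) on the log2 scale where the tumor cells lacked Ptgs1 and Ptgs2 (adjusted p = 0.000406 by the quasi-likelihood test of edgeR), and had a log2 fold change of -0.34 after depletion. Agrn, Runx1 and Ankrd1, the most abundant genes of the list, had log2 fold changes of -0.17, -0.30 and -0.03 after depletion.

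The fast fiber genes are the RNA on which the choice of genes rested, so their values after NK cell depletion are given for scale alone. The 18 that passed the filter had a median log2 fold change of 3.65 against Ptgs-/- tumors. They included Acta1 at 3.97 (standard error 0.76), Myh4 at 3.87 (standard error 0.65), Tnni2 at 3.72, and the largest, Tcap at 4.42, Mybpc2 at 4.20 and Mylpf at 3.99. The enzyme Ckm, creatine kinase of muscle, had 3.66. Myog at 4.34 lay near the top of the range of these genes, and its value rests on 4 counts in all in Ptgs-/- libraries. The myosins Myh1 and Myh2 of other fast fibers had log2 fold changes of 2.95 and 0.93. Of 10 slow fiber genes 7 were tested and 1, myoglobin (Mb), was called higher, beside 0.825% of all genes. Atp2a2, Tnnt1 and Myoz2 had log2 fold changes of 0.16, 0.85 and 1.36, and the slow myosin Myh7 had 0 to 7 counts in every library. Between Ptgs-/- and Ptgs+/+ tumors 7 of the 18 fast fiber genes were called higher, beside 3.14% of all genes. The median of the 18 was 1.63, beside -0.01 over all genes and 3.17 for Chrna1. The filter used the libraries of all 3 groups, and some of the 18 had few counts in the groups compared. Myh2 had 1, 2, 3 and 1 counts in Ptgs+/+ and 3, 10 and 2 in Ptgs-/- libraries.

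**Figure D5:**
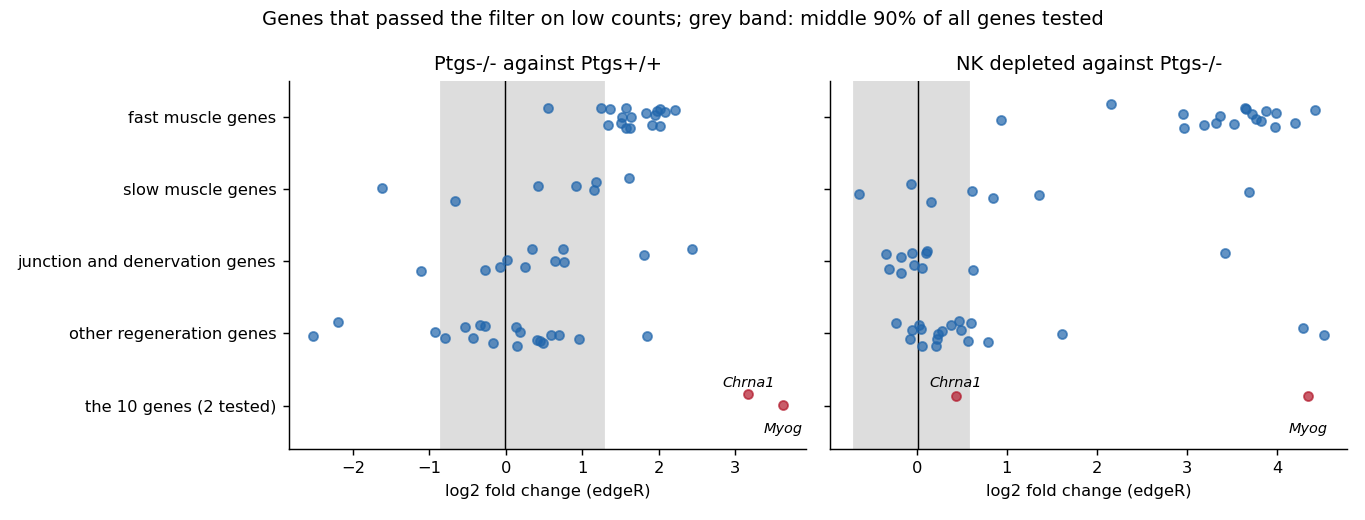
log2 fold changes (x axis, edgeR) of the genes that passed the filter on low counts, 1 dot per gene and 1 line per gene group, for Ptgs-/- against Ptgs+/+ (left) and NK cell-depleted against Ptgs-/- tumors (right). The grey band holds the middle 90% of all genes tested and the line marks their median. Chrna1 lies outside the band on the left at 3.17 and inside it on the right at 0.44. Myog lies near the upper end of the fast muscle genes on the right at 4.34.

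Likeness to other genes was measured by Pearson's r of log2(CPM + 1) over the 10 libraries, which share depth and group, and is a description. The genes most like Myog were Sbk2 (r = 0.99), Fbp2, the fructose bisphosphatase of muscle (r = 0.99), and Hhatl (r = 0.99). Their levels in NK cell-depleted tumors were 8.99, 4.65 and 12.6 CPM and below 1 CPM in both other groups. The genes most like Chrna1 were Fam19a5 (r = 0.98), Aldh3a1, an aldehyde dehydrogenase (r = 0.98), and Spink2 (r = 0.98). Aldh3a1 was 17.1 CPM in Ptgs+/+, 118 in Ptgs-/- and 122 in NK cell-depleted tumors, and Fam19a5 was 0.547, 10.4 and 13.1 CPM.

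Other cell types also differed between groups, and their part in these results was not tested. The summed level of 10 fibroblast genes was 7771 to 10756 CPM in Ptgs+/+, 13877 to 17114 in Ptgs-/- and 10962 to 13976 in NK cell-depleted libraries, so that like Chrna1 it was lower in every Ptgs+/+ library than in every Ptgs-/- library. The 10 NK cell genes summed to 12.5 to 34.0, 74.5 to 155 and 5.78 to 6.46 CPM. Nerve and Schwann cell genes, at 180 to 392, 213 to 651 and 293 to 468 CPM, and fat cell genes, at 2246 to 10849, 635 to 6919 and 4311 to 8454 CPM, overlapped between all groups. Smooth muscle genes ran from 261 to 355, from 119 to 267 and from 389 to 778 CPM, and in that list Des, which skeletal muscle also makes, took 163 to 474 CPM after depletion. Keratinocyte genes summed to 29.3 to 69.6 CPM over all libraries, with Flg and Dsg1a at 0, and melanocyte genes to 28.2 to 56.0 CPM.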

How the data were processed

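RNA of whole tumors was made into 3′ libraries with the QuantSeq FWD kit. The authors trimmed the reads with BBDUK, fqtrim and cutadapt, aligned them to GRCm38 with STAR, counted them on the Ensembl version 86 annotation with featureCounts, and deposited the raw counts of each tumor, neither normalized nor pooled. Whether counting used strand and how reads of several genes were treated are not given in the sources used here. For all 10 genes, none of the last 500 exonic bases overlapped an exon of another gene in GENCODE release M21, which gave names to 45143 of 45706 identifiers.

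The genes and the lists they are set beside were chosen with earlier results of these data known. Counts were compared with edgeR 4.0.16 (TMM, filterByExpr, quasi-likelihood test, Benjamini-Hochberg adjustment over 14550 genes) in R 4.3.3, with all 10 libraries in 1 model. Standard errors were derived from the fold change and its test statistic. Thresholds follow the study's methods (FDR at or under 0.05, absolute log2 fold change at least 1.5). CPM was the count per 1000000 counts of the library, without TMM. Low genes are given as counts, with exact conditional binomial intervals for ratios of group sums, exact Poisson intervals per library, and a floor of 3 counts over the group where a group is at 0. All of these cover counting error only. A library's floor of 3 counts is 0.234 to 0.368 CPM. Libraries of a group differed by 7.41 to 30.1 chi-square units per degree of freedom, so none was a duplicate. In data simulated for Ptgs-/- against Ptgs+/+ over 14339 genes, 195 of 200 changed genes and 2 unchanged genes were called. The changed genes were all well counted, with 1 size of change and 1 fixed spread between replicates. This recovery therefore does not apply to genes at a few counts. Named genes are the 10, their direct counterparts, and of each related list the 3 with the highest mean CPM and the 3 with the largest change after depletion. Alternatives were DESeq2 1.42.0, library size alone, other filters, thresholds and tests, and the code in the titles. Further ones were the groups compared alone, a replicate block, each library left out and other measures of muscle RNA. Groups come from the labels, which do not say whether tumors of a group shared a culture of cells, so that p-values measure the spread between these tumors. Identities between receptor and myosin proteins were not computed here.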

Additional observations from a re-analysis of the deposited data

Results flagged for a closer look

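In the group of 4 Ptgs+/+ libraries, 28 sets of values were examined for a library that stands apart, by Dixon's criterion, and 3 met it. Its chance rate of about 1 in 20 does not hold for such low counts. Where 3 libraries are at 0, any count in the other one meets it, and sets at 0 in all 4 libraries cannot. Nothing is therefore read from the 3 flags. Myf6 was 0.0878 CPM in Ptgs+/+ replicate 3 and 0 in the other three, which as a proportion was 0.368 counts per 1000 fast fiber counts. Myh8 was 0.209 CPM in Ptgs+/+ replicate 4 and 0 in the rest. These values rest on 1 count of Myf6 and 2 counts of Myh8.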

How the results depend on the processing

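Over 204 results under another setting, 183 stayed the same and 1 changed direction. Results stayed the same if they kept direction and side of the thresholds or moved by less than the spread between replicates (counts of genes by less than 1.5 times). Some could hardly move: the setting without a fold limit reuses the main fit, and some fits left out a library of the group not compared. The share of 183 is therefore no measure of robustness. The call of Chrna1 in Ptgs-/- against Ptgs+/+ tumors held in all 19 alternatives, with log2 fold changes of 2.90 to 3.45 and adjusted p of at most 0.000748 (edgeR and DESeq2). A likelihood ratio test called 2 of the genes there, beside 651 of all 14550 genes. It added Myog, which is in these fits only through the NK cell-depleted libraries. Leaving out 1 library at a time gave 1 to 2 genes in Ptgs-/- against Ptgs+/+ tumors. It gave 0 to 1 for NK cell-depleted against Ptgs-/- tumors and 2 to 3 against Ptgs+/+ tumors. Among all 14434 to 14948 genes tested, these fits called 480 to 723, 100 to 213 and 343 to 439. For NK cell-depleted against Ptgs+/+ tumors Myh8 was called in the 4 fits that left out a Ptgs-/- replicate or NK cell-depleted replicate 1, and among libraries of code EB046. Without a filter on low counts, NK cell-depleted tumors had 2 genes called against Ptgs-/- (Myog, Myf6) and 6 against Ptgs+/+ (Pax7, Myod1, Myog, Myf6, Myh8, Chrna1). Among all 27098 genes in that fit 249 and 536 were called. With at least 10 counts required in every library 0 and 1 were called, since that filter removes Myog, beside 36 and 142 of 12296 genes. Nothing is read from these calls, as the genes were chosen with the NK cell-depleted group in view. The fitted fold change of Myog moved most with Ptgs-/- replicate 1 left out, to 5.68 against Ptgs-/- tumors.

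As log2 differences of group medians of counts per 1000 fast fiber counts, the 9 genes without Chrna1 stood at -0.56 in NK cell-depleted minus Ptgs-/- tumors, at -0.20 with slow and fast genes together and at -1.13 with the median of log2(CPM + 1) in place of the sum, and at -0.78 to -0.40 with 1 library left out. Chrna1 stood at -1.65 in NK cell-depleted minus Ptgs+/+ tumors and changed direction, to 0.45, with slow and fast genes together. That sum is led by Atp2a2, at 118 to 229 CPM in every library.

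With the number in the title as a replicate block, 1, 1 and 2 genes were called in the 3 comparisons, as without it, and the block changed no call. Of all 14550 genes this fit called 610, 156 and 400. Of 11 pairs of libraries with the same number, 4 had deviations correlated above 0.1 (-0.24 to 0.36), so the numbers were not read as pairs. In each comparison 8 of the 10 genes were too low to test at this depth.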

Other observations

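A low count of a single muscle gene cannot be read as absence in these libraries. Tnnc2, the calcium sensor of fast fibers, had 0 counts in all Ptgs+/+ and Ptgs-/- libraries and 1, 3 and 3 in NK cell-depleted libraries, where Acta1 had 11188 to 25603. Of its last 500 exonic bases 94.2% overlap Ube2c on the other strand. Cacna1s, the calcium channel of fibers, had 0 to 2 counts per library, and Mybph, which denervated muscle makes, had none, and the last 500 exonic bases of both overlap another gene on the other strand in full (100%). Other genes with such an overlap had counts: Mef2d, a myogenic cofactor, is overlapped in full (100%) and had 433 to 919 counts per library, and Mb, overlapped over 82.4%, had 238, 377 and 688 in NK cell-depleted libraries. The part of overlap in these counts was not tested, and none of the 10 genes has such an overlap.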
